A study of Mus musculus with 6 samples.

Results

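Guanylin (encoded by Guca2a), uroguanylin (Guca2b) and their receptor guanylyl cyclase C (Gucy2c) were followed through all 6 single-cell RNA libraries of mouse small intestinal organoids. The members were found by gene symbol, and they are 3 of the 32285 genes in the files. The organoids were grown from the duodenum of adult mice, and every library was made at day 3. The -EIPA group (2 libraries) was wild type (WT) and received the DMSO vehicle, and the +EIPA group (2 libraries) was WT and received EIPA, an amiloride derivative that blocks sodium-proton exchange. The -Dox and +Dox groups (1 library each) came from WT organoids that carried a doxycycline-inducible Cas9 and a guide RNA (the CRISPR line). They had been infected with lentivirus and selected with puromycin, and only +Dox was treated with doxycycline. Clones were grown from single organoids, and whether both libraries came from 1 clone is not given in the sources used here. All libraries were sorted for live cells, but +Dox was also gated on GFP, so the sort and the Dox treatment cannot be told apart. Cells kept (at least 1000 genes and under 20% mitochondrial counts) numbered 87954, from 12083 to 18211 in a library, with a median of 11477.5 to 17020 UMIs (unique molecules) in a cell. Between 33 and 78 cell barcodes were shared by a pair of libraries.

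Guanylin and uroguanylin are short peptides that epithelial cells release into the gut lumen as precursors. They bind the extracellular part of guanylyl cyclase C on the apical membrane, whose intracellular part then makes cGMP. In the small intestine, cGMP activates the kinase encoded by Prkg2, which opens the chloride channel CFTR, and sodium uptake through NHE3 (Slc9a3) is reduced, so that salt, bicarbonate and water enter the lumen. The heat-stable toxin of enterotoxigenic Escherichia coli acts on the same receptor.

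The ligand genes are neighbours. On mouse build mm10 (GRCm38), Guca2a (ENSMUSG00000023247) lies at chr4:119637704-119639471 on the + strand and Guca2b (ENSMUSG00000032978) at chr4:119656607-119658954 on the - strand, with 17135 bases between them. Each has 3 exons, and they code for 116 and 106 codons. Gucy2c (ENSMUSG00000042638) lies at chr6:136697284-136781765 on the - strand, with 27 exons and 1072 codons. The end of each coding region is the part that is released as the active peptide. The last 45 coding bases before the stop codon, which lie within 1 exon in each gene, are shown in coding direction, with the cysteine codons in capitals, because those cysteines form the disulphide bonds of the active peptides.
Guca2a, chr4:119639228-119639272, + strand: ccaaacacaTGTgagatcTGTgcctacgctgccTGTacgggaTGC
Guca2b, chr4:119656795-119656839, - strand: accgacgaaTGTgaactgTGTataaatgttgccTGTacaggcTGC
The 4 cysteine codons sit at the same places in both, and 29 of the 45 bases (64.4%) and 5 of the 15 codons are identical. Reads of the ligands are thus distinct over this stretch.

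The stretches just upstream of the ligand genes are shown because both genes were high in differentiated cells but differed in which class they were highest in. RefSeq promoters on GRCm38.p6 were matched for 2 of the 3 members, and only the bases upstream of the annotated gene starts are printed (222 bases for Guca2a and 241 for Guca2b).
Guca2a, chr4:119637482-119637703, + strand: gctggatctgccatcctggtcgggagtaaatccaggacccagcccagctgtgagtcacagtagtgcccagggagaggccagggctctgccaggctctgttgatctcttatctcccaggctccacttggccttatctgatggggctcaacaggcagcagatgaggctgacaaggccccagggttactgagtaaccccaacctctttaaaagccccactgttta
Guca2b, chr4:119658955-119659195, - strand: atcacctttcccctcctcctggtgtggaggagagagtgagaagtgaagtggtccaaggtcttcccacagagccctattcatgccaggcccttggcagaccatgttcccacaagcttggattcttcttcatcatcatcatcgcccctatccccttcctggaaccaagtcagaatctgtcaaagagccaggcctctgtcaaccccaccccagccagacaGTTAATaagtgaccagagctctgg
The capitals mark the HNF1 half-site letters GTTAAT, which start 33 bases before the start that RefSeq gives for Guca2b. The RefSeq starts of both genes lie inside the annotated genes, downstream of the printed stretches. These letters or their reverse complement occur in 7.10% of all 32851 promoters of the table. CACCC, bound by KLF factors, occurs 48 bases before the RefSeq start of Guca2b and in 57.5% of all promoters. CAAAGT (an HNF4 half-site, in 14.4% of all promoters), TTTAT (a CDX core, 40.0%) and TATAAA (13.6%) were found on neither strand of either RefSeq window, of which the printed bases are the upstream part. The reverse complement of the CDX core is contained in TATAAA. A match is a description of these letters only.

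Cells were clustered without the 3 members and without the 33 other pathway genes described further on, and clusters were named by their marker genes. Of 23 clusters, 18 were assigned to 8 classes: enterocyte-like, Paneth-like, goblet-like, enteroendocrine-like (EEC-like), tuft-like, revival-like, stem cell-like (ISC-like) and proliferating-like. The remaining 5 had no clear name. The 15 Paneth markers made up 11.1% to 19.0% of the UMIs of Paneth-like cells and at most 1.86% in goblet-like cells, and the 26 enterocyte markers made up 2.84% to 6.96% in enterocyte-like cells. Paneth-like cells also carried the 13 goblet markers, at 1.68% to 2.36% of UMIs against 1.70% to 3.33% in goblet-like cells, so the separation of these secretory classes was not complete. Revival-like cells carried the 26 enterocyte markers at 0.716% to 4.09% of UMIs, which overlaps the enterocyte-like range, and their own 5 markers at 0.0131% to 0.261%, against at most 0.0275% in any other class. Markers of fibroblasts, immune cells and endothelium each stayed under 0.00371% at the highest in any class and library. Each UMI is counted once from the 3′ end, so CPM (counts per 1000000 UMIs) does not grow with transcript length and levels of the 3 genes may be set side by side. Levels across classes are described here with no test.

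Guca2a was highest in Paneth-like cells in each of the 6 libraries. Its level there was 1768 and 988 CPM in the -EIPA libraries, 1565 and 1321 CPM in +EIPA, 3591 CPM in -Dox and 3373 CPM in +Dox. Goblet-like cells came next in every library, at 563 and 399 CPM in -EIPA, 683 and 801 CPM in +EIPA, 1439 CPM in -Dox and 1879 CPM in +Dox. Both secretory classes were thus higher in the CRISPR line, treated or not, than in any WT library. A small goblet-like cluster (42 to 99 cells in the WT libraries) had 919 to 1704 CPM in the WT libraries, near the Paneth-like class. In -Dox and +Dox it had 4912 and 4538 CPM, above that class and both of its clusters (2067 to 4025 CPM). The other goblet-like cluster stayed between 365 and 1590 CPM. The order of Paneth-like and goblet-like cells thus holds for the classes as clustered here. Next in the order were revival-like cells (72.1 to 710 CPM) and enterocyte-like cells (39.7 to 467 CPM), with revival-like above in 5 of 6 libraries, so these neighbours were not separated beyond their spread. EEC-like (46.0 to 152 CPM) and tuft-like cells (23.3 to 207 CPM) overlapped, as did ISC-like (12.6 to 57.1 CPM) and proliferating-like cells (9.79 to 55.9 CPM) at the bottom. Within a library the highest class exceeded the lowest by 60.2- to 181-fold.

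Guca2b had another order. Revival-like cells, the class with the markers Clu and Anxa1 and with enterocyte markers too, held 2779 and 329 CPM in the -EIPA libraries, 2430 and 1261 CPM in +EIPA, 536 CPM in -Dox and 2925 CPM in +Dox. The -EIPA libraries differed more from each other here than from the +EIPA libraries, and -EIPA replicate 1 rested on 96 revival-like cells. Enterocyte-like cells held 536 and 332 CPM in -EIPA, 1480 and 1842 CPM in +EIPA, 451 CPM in -Dox and 2191 CPM in +Dox. Paneth-like cells stayed within 495 to 854 CPM over all 6 libraries. These 3 classes changed places from library to library: revival-like cells were highest in 3, Paneth-like cells in 2 (-EIPA replicate 2 and -Dox) and enterocyte-like cells in 1. Goblet-like cells came after them in every library (143 to 372 CPM), followed by tuft-like (34.5 to 332 CPM) and EEC-like cells (31.0 to 185 CPM). ISC-like (11.3 to 48.9 CPM) and proliferating-like cells (10.2 to 61.9 CPM) were lowest and exchanged places in 3 of 6 libraries. The highest class exceeded the lowest by 44.4- to 271-fold.

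The receptor was spread almost evenly. Gucy2c was highest in EEC-like cells in 5 libraries, with 85.5 and 96.4 CPM in -EIPA, 91.5 and 88.0 CPM in +EIPA, 69.0 CPM in -Dox and 72.1 CPM in +Dox. Enterocyte-like cells held 62.0 and 59.8 CPM in -EIPA, 61.9 and 64.5 CPM in +EIPA, 66.2 CPM in -Dox and 85.7 CPM in +Dox, the last being the highest class of that library. The remaining 6 classes lay between 34.6 and 59.3 CPM, with neighbours that exchanged places between libraries. The highest class exceeded the lowest by only 1.34- to 2.59-fold. ISC-like cells, in which both ligands were near their lowest levels, held 35.3 to 55.8 CPM of the receptor.

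**Figure D1:**
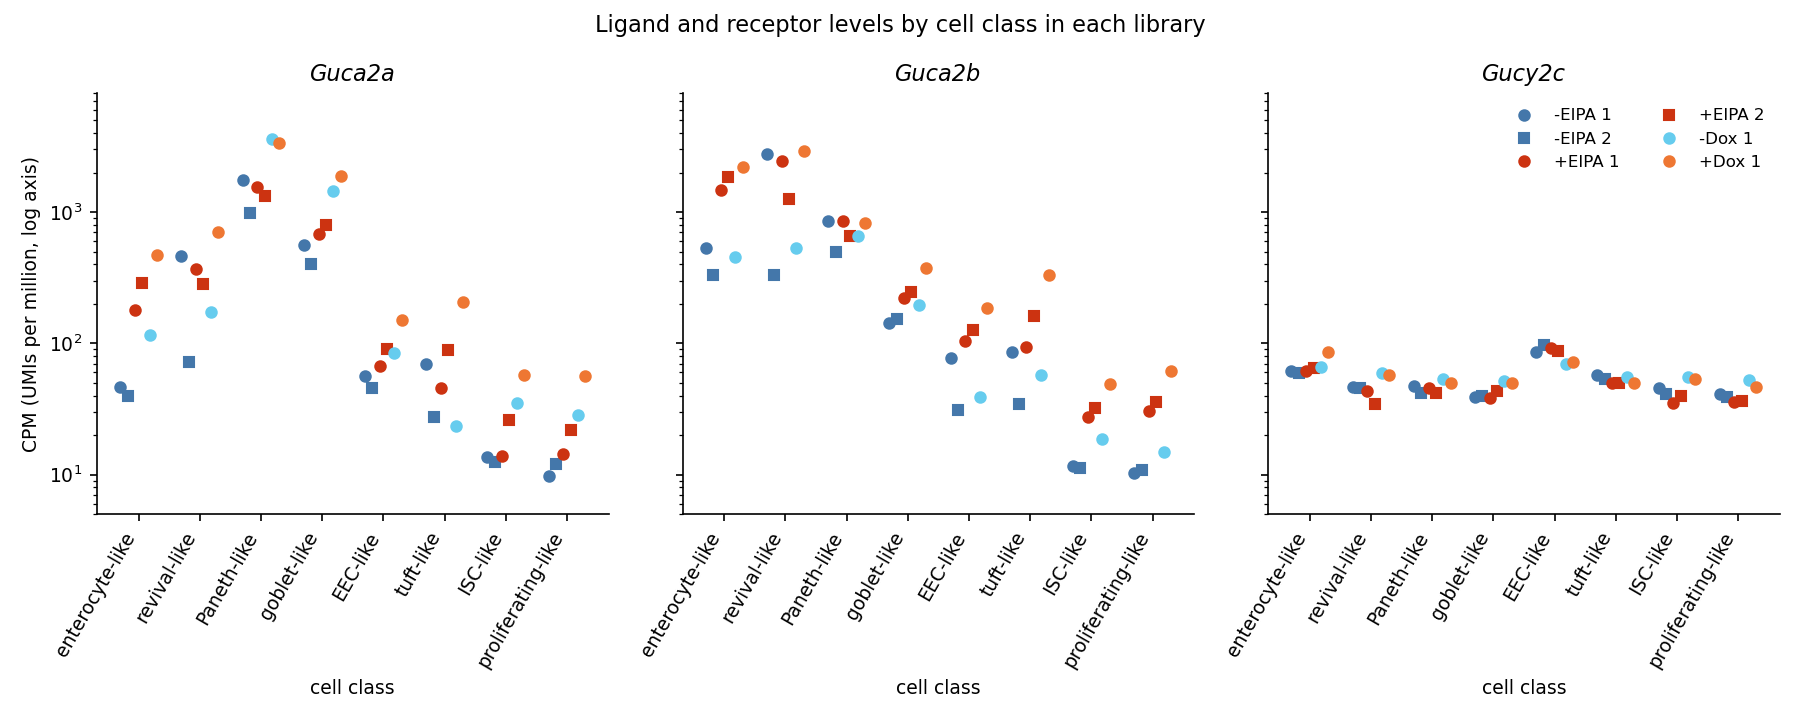
Levels of Guca2a, Guca2b and Gucy2c in 8 cell classes, as CPM on a log axis, with 1 point for each of the 6 libraries and no error bars. Guca2a is highest in Paneth-like cells (988 to 3591 CPM), Guca2b in revival-like, enterocyte-like or Paneth-like cells, and Gucy2c lies between 34.6 and 96.4 CPM throughout.

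Within the classes, the receptor was higher in some clusters than in others. The EEC-like class held 3 clusters. The cluster led by the peptide hormone genes Gip, Cck and Gcg (121 to 341 cells in the WT libraries) had 163 and 183 CPM of Gucy2c in -EIPA, 179 and 139 CPM in +EIPA, 72.5 CPM in -Dox and 104 CPM in +Dox. The cluster led by Chgb, Chga and the enterochromaffin genes Tac1 and Tph1 had 58.2 to 92.4 CPM in the WT libraries and 145 and 116 CPM in -Dox and +Dox, so the order of these clusters in the WT libraries was turned round in the CRISPR line, where they held 54 to 171 cells. The content of this cluster also differed there, with Tph1 at 230 and 368 CPM in -Dox and +Dox against 980 to 1326 CPM in the WT libraries. The third EEC-like cluster, led by Ghrl and the progenitor factor Neurog3, had 41.4 to 54.8 CPM. Among the enterocyte-like clusters, the 1 of 4 led by the lipid-transport genes Apoa4 and Apob and the glucose transporter Slc5a1 reached 83.6 to 129 CPM, against 52.4 to 94.7 CPM in the other three. Cells of the clusters led by Gip and by Apoa4 were shallow, with a median UMI count 0.543 and 0.342 times that of their samples, as were those of the Ghrl-led and tuft-like clusters, with lower Gucy2c (0.461 and 0.449 times). An unnamed shallow cluster led by mitochondrial genes (0.310 times) held 61.6 to 116 CPM of Gucy2c.

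Counting where the UMIs came from gives the weight of each class in the culture. Paneth-like cells were 5.10% to 11.8% of the cells and held 52.5% to 65.1% of a library's Guca2a UMIs. Goblet-like cells held another 14.5% to 21.8%, and enterocyte-like cells held 6.04% and 4.81% in -EIPA, 18.1% and 17.9% in +EIPA, 8.27% in -Dox and 17.4% in +Dox. For Guca2b the weights were turned round. Enterocyte-like cells held 42.5% to 66.5% of a library's Guca2b UMIs and Paneth-like cells 11.0% to 34.4%. For the receptor, proliferating-like cells, 26.2% to 39.6% of the cells, held 24.8% to 42.8% of the Gucy2c UMIs, and enterocyte-like cells held 17.1% to 36.3%.

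**Figure D2:**
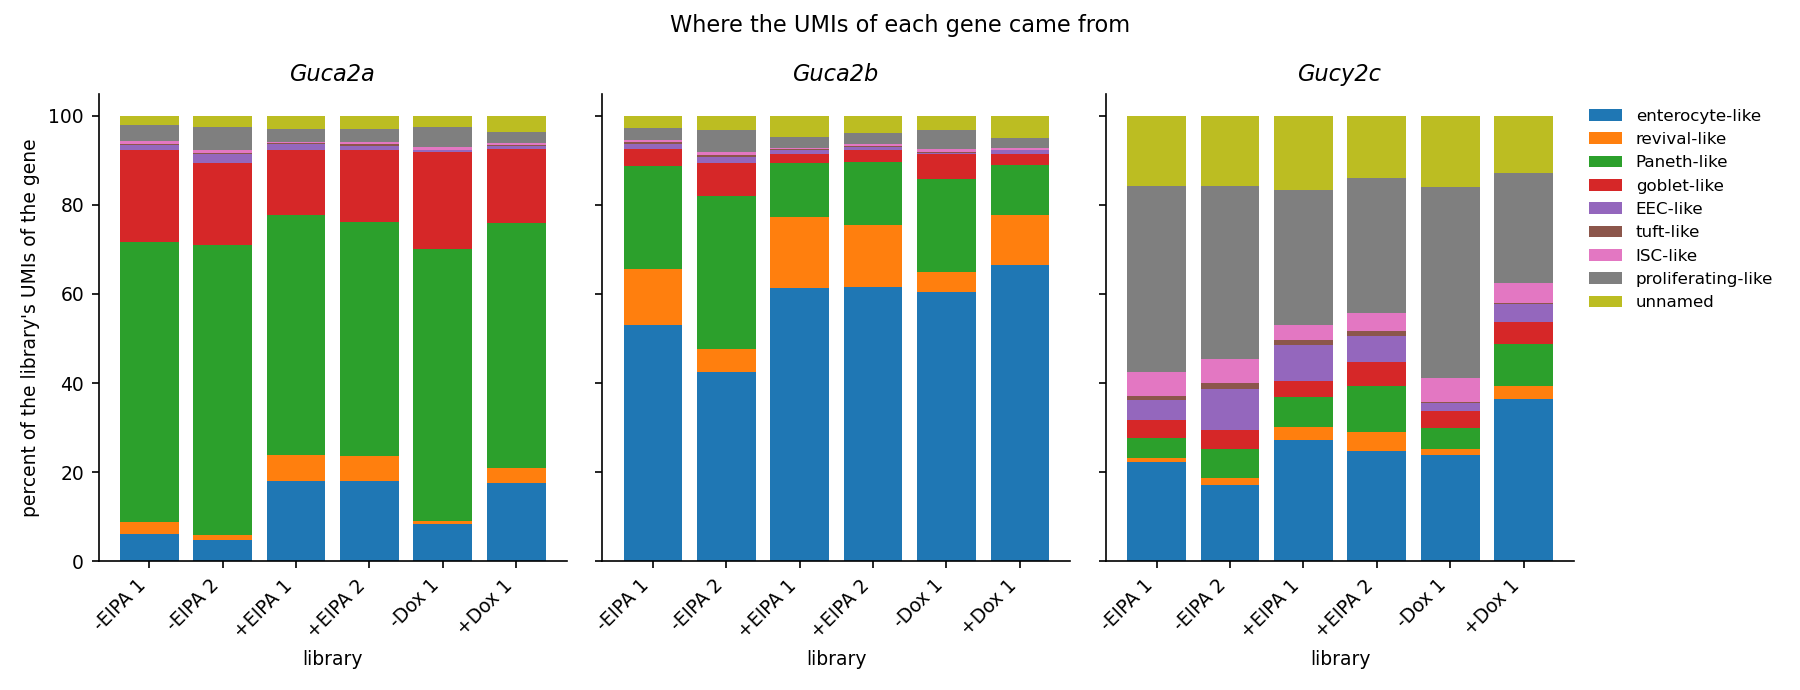
Share of each library's UMIs of Guca2a, Guca2b and Gucy2c that came from each class, in percent, with 1 stacked bar for each library and the unnamed clusters on top. Paneth-like cells hold 52.5% to 65.1% of Guca2a, enterocyte-like cells 42.5% to 66.5% of Guca2b, and no class holds more than 42.8% of Gucy2c.

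Free RNA in the droplets gives ligand UMIs to cells that do not make the ligand, so low levels were set beside proliferating-like cells, a class that is not known for making either ligand. With each cell thinned to 2000 UMIs, 1.82% to 8.99% of proliferating-like cells had a Guca2a UMI and 2.28% to 9.30% had a Guca2b UMI. Without thinning, at library medians that differed, these shares were 13.4% to 59.7% and 13.3% to 57.4%. The ratio of Guca2a to Guca2b UMIs in proliferating-like cells was 0.955 and 1.10 in -EIPA, 0.470 and 0.612 in +EIPA, 1.90 in -Dox and 0.903 in +Dox. In the barcodes with fewer than 1000 genes, which hold debris and free RNA, it was 0.757, 1.15, 0.401, 0.563, 1.60 and 0.999 in the same order. The ratios of proliferating-like cells moved with those of these barcodes from library to library, and the cause was not tested. In ISC-like cells the ratio was 1.16, 1.11, 0.505, 0.812, 1.89 and 1.17, and over all cells it was 0.758, 1.06, 0.415, 0.541, 1.86 and 0.813, so that sums over all cells moved in the same way. In EEC-like cells the ratio was 0.733, 1.48, 0.650, 0.714, 2.17 and 0.820, and it too moved with that of these barcodes and of all cells. Enterocyte-like and Paneth-like cells had ratios of their own, at 0.0864 to 0.255 and 1.84 to 5.43. Guca2a in enterocyte-like cells was at 46.3, 39.7, 181, 289, 115 and 467 CPM in the same order. The barcodes with fewer than 1000 genes held 125, 135, 226, 263, 263 and 784 CPM of it. Only in +EIPA replicate 2 was it higher in enterocyte-like cells than in these barcodes. Compared with proliferating-like cells, Guca2a was higher in enterocyte-like cells in every library, by 4.73-, 3.30-, 12.5-, 13.2-, 4.07- and 8.36-fold in the same order. Levels in proliferating-like and ISC-like cells were lower than in the barcodes with fewer than 1000 genes, which held 125 to 784 CPM of Guca2a and 117 to 785 CPM of Guca2b. No expression is read from the ligand values of proliferating-like and ISC-like cells. The part of free RNA in them, in the EEC-like values and in Guca2a of enterocyte-like cells was not tested.

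Shares of thinned cells show how common each transcript was. A Guca2a UMI was found in 68.0% to 92.5% of Paneth-like cells. In enterocyte-like cells the share was 7.36% and 6.40% in -EIPA, 24.5% and 31.8% in +EIPA, 16.9% in -Dox and 48.5% in +Dox (unthinned 25.8%, 24.1%, 56.6%, 67.9%, 48.4% and 92.0%). For Guca2b in enterocyte-like cells it was 40.1% and 27.7% in -EIPA, 72.9% and 76.5% in +EIPA, 36.0% in -Dox and 84.7% in +Dox (unthinned 65.5%, 54.2%, 92.1%, 95.3%, 62.2% and 98.8%). Both treated groups lay above their controls for both ligands. Both ligands were found in the same cell in 39.2% to 67.1% of Paneth-like cells. In enterocyte-like cells this share was 5.19% and 3.28% in -EIPA, 22.1% and 29.4% in +EIPA, 9.85% in -Dox and 44.8% in +Dox. A Gucy2c UMI was found in 11.9% to 15.9% of enterocyte-like and 12.8% to 19.0% of EEC-like cells, against 6.92% to 10.3% of proliferating-like and 7.39% to 12.3% of Paneth-like cells. No class was taken to lack the receptor, so no background was set for it. The barcodes with fewer than 1000 genes held 51.7 to 67.6 CPM of Gucy2c. The part of free RNA in its levels was not tested.

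To place the genes along enterocyte differentiation, the cells outside the goblet-, Paneth-, EEC- and tuft-like classes were put into 5 bins by the share of their UMIs that fell on the 26 enterocyte markers. Guca2b differed little over bins 1 to 3 (8.39 to 10.5 CPM in -EIPA replicate 1) and was far higher in bin 5. Its level there was 803 and 608 CPM in -EIPA, 1657 and 1957 CPM in +EIPA, 554 CPM in -Dox and 2075 CPM in +Dox, which is 37.3- to 95.7-fold above bin 1 of the same library. Guca2a in bin 5 was 78.9 and 62.7 CPM in -EIPA, 210 and 329 CPM in +EIPA, 132 CPM in -Dox and 468 CPM in +Dox, which is 4.93- to 15.4-fold above bin 1. Gucy2c went from 32.7 to 49.8 CPM in bin 1 to 58.1 to 82.0 CPM in bin 5, a ratio of 1.32 to 2.05. Uroguanylin was thus the member with the steepest slope along the markers in every library. In bin 1 the ligands were low, at 8.39 to 37.1 CPM of Guca2b and 10.8 to 54.9 CPM of Guca2a. The part of free RNA in these levels, and so in the ratios, was not tested.

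**Figure D3:**
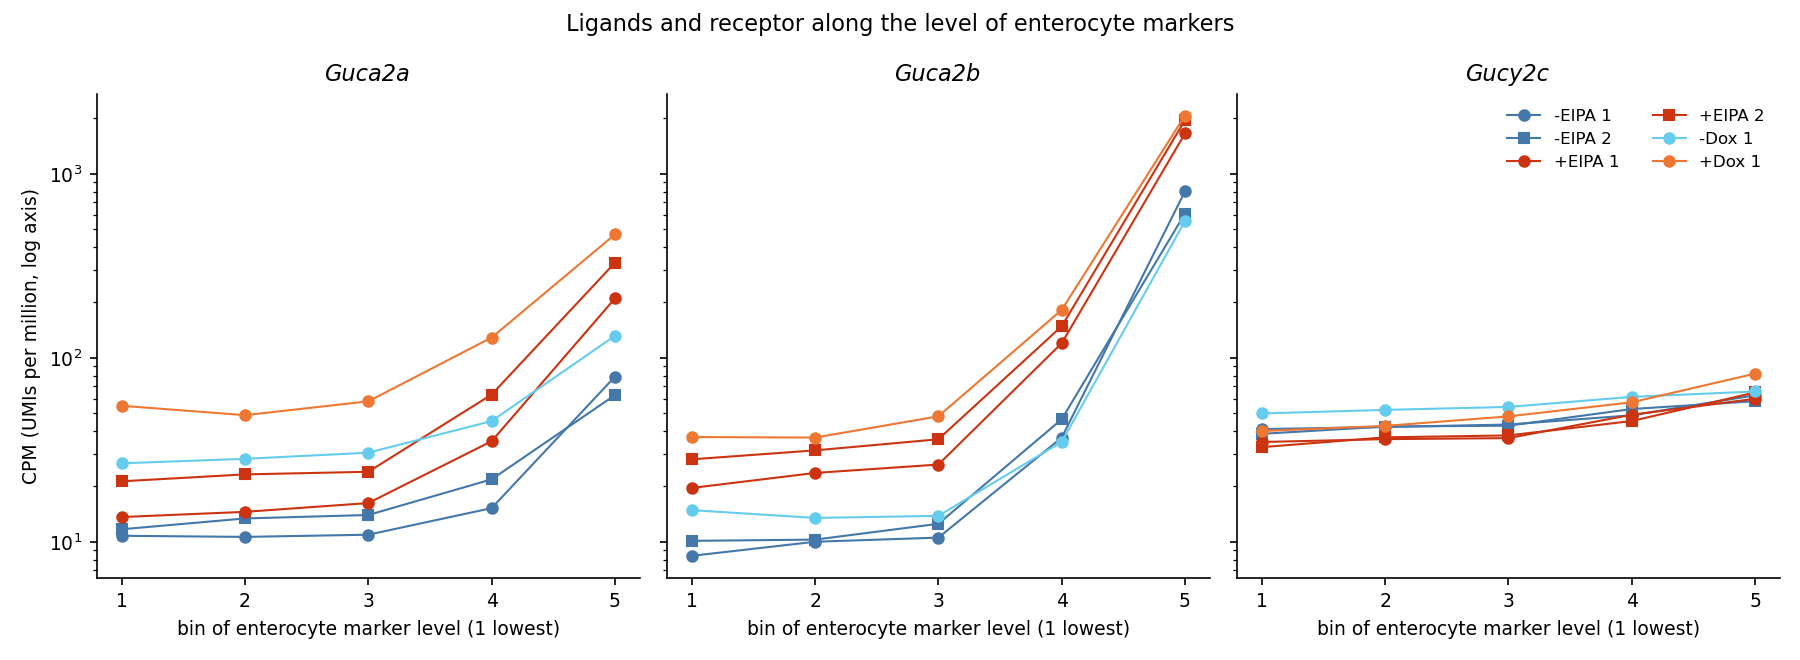
Levels of Guca2a, Guca2b and Gucy2c in CPM on a log axis, along 5 bins of enterocyte marker level (bin 1 lowest), with 1 line for each of the 6 libraries and no error bars. Between bin 1 and bin 5 Guca2b differs by 37.3- to 95.7-fold, Guca2a by 4.93- to 15.4-fold and Gucy2c by 1.32- to 2.05-fold, and in bin 5 the +EIPA and +Dox lines of both ligands lie above their controls.

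EIPA was compared with its vehicle in each class to ask whether ligand and receptor change under the inhibitor. In enterocyte-like cells both ligands were higher in both +EIPA libraries than in both -EIPA libraries, and the receptor was not. Guca2a was at 46.3 and 39.7 CPM in -EIPA and 181 and 289 CPM in +EIPA, a ratio of the means of 5.47 (3.90 between the libraries numbered 1 and 7.29 between those numbered 2). In the barcodes with fewer than 1000 genes it went from 125 and 135 CPM to 226 and 263 CPM. The part of free RNA in the enterocyte-like values of Guca2a was not tested. Guca2b was at 536 and 332 CPM in -EIPA and 1480 and 1842 CPM in +EIPA, a ratio of 3.83 (2.76 and 5.55). The groups did not overlap for either ligand, whereas Gucy2c, at 62.0 and 59.8 CPM against 61.9 and 64.5 CPM, overlapped. The share of all genes whose groups did not overlap was not counted in any class.

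By edgeR's quasi-likelihood test on summed counts, with Benjamini-Hochberg adjustment over all genes, neither ligand passed 0.05 in enterocyte-like cells, but both did once the shared experiment number was used as a block. Guca2a had a log2 fold change of 2.61 (SE 0.26), an adjusted p of 0.0615 without the block and of 0.00394 with it. Guca2b had 2.09 (SE 0.28), with adjusted p values of 0.0820 and 0.00762. Gucy2c had 0.21 (SE 0.13), with 0.428 and 0.33. Without the block, edgeR called 0 of 12557 genes in this class (0%), with 2269 genes at an unadjusted p under 0.05, while DESeq2 called 575 and edgeR with the block 679 (5.41%). The block leaves 1 residual degree of freedom. When any 1 library was left out, the adjusted p without the block fell to between 0.00328 and 0.0355 for Guca2a and between 0.00423 and 0.0499 for Guca2b. Such a fit sets 1 library against 2 and takes its spread from the group that keeps both. These fits called 10.0% and 0.350% of genes without -EIPA replicates 1 and 2, and 0.726% and 0.124% without +EIPA replicates 1 and 2. The enterocyte-like class was not uniform, and its 4 clusters were fitted apart, a choice made after seeing the data. In the order of the clusters led by Gstm3, by Reg3a and Apoc3, by Apoa4 and Apob, and by Reg1, Guca2a had log2 fold changes of 2.51, 2.19, 2.94 and 2.81, and it passed in 3 (edgeR adjusted p 0.0409, 0.0715, 0.0120 and 0.00585). Guca2b had 2.46, 1.43, 2.96 and 1.47, and passed in the same 3 (0.0409, 0.137, 0.0229 and 0.0249). In the same order, 0.272%, 0.00925%, 2.64% and 0.233% of genes were called.

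The same comparison was read within bins of enterocyte marker level, where marker levels lie closer together. Bin 5 held 18.1% and 9.07% of the binned cells in -EIPA and 29.1% and 27.4% in +EIPA, and the median marker share within it was 4.21% and 3.83% against 5.55% and 5.87%. Within bin 5 the ratio of the +EIPA mean to the -EIPA mean was 3.81 for Guca2a (2.66 and 5.24 by replicate number), 2.56 for Guca2b (2.06 and 3.22) and 1.03 for Gucy2c. The ligand groups did not overlap in bins 4 and 5, and the share of all genes that did the same was not counted. They did not overlap in bins 1 to 3 either, at 10.6 to 24.0 CPM of Guca2a and 8.39 to 36.1 CPM of Guca2b. No expression is read from such levels, and the part of free RNA in them was not tested. The bins held other cells in each group: enterocyte-like cells were 22.2% and 40.2% of bin 4 in -EIPA and 6.42% and 5.15% in +EIPA, and 93.3% and 95.8% of bin 5 against 84.4% and 83.8%. The markers that define the bins moved with EIPA themselves, and the part of both in the result was not tested.

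In Paneth-like cells, the main source of guanylin, the groups overlapped for both ligands. Guca2a was at 1768 and 988 CPM in -EIPA and 1565 and 1321 CPM in +EIPA (log2 fold change 0.16, SE 0.24, edgeR adjusted p = 1.00, and 0.733 with the block). Guca2b was at 854 and 495 CPM against 849 and 656 CPM (0.24, SE 0.23, adjusted p = 1.00, and 0.318 with the block). edgeR called 33 genes in this class (0.277%), or 360 with the block (3.02%). Without -EIPA replicate 2, both values turned negative (-0.20 for Guca2a and -0.10 for Guca2b).

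In goblet-like cells both ligands were higher in both +EIPA libraries, by less than in enterocyte-like cells. Guca2a was at 563 and 399 CPM in -EIPA and 683 and 801 CPM in +EIPA, and its log2 fold change of 0.66 (SE 0.18) had an edgeR adjusted p of 0.388, or 2.50e-16 with the block. Guca2b was at 143 and 153 CPM against 220 and 248 CPM, and its 0.70 (SE 0.11) had 0.0966, or 1.34e-16 with the block. Such small p values rest on a spread that the fit shares across genes. In goblet-like cells edgeR called 0 genes (0%) without the block, with 846 at an unadjusted p under 0.05 and 54 called by DESeq2, and 663 with the block (5.74%).

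The other classes are given by their range. In EEC-like cells Guca2b was at 77.4 and 31.0 CPM in -EIPA and 104 and 127 CPM in +EIPA (log2 fold change 1.19, SE 0.33, edgeR adjusted p = 0.874, and 1.60e-29 with the block), and Guca2a had 0.68 (SE 0.17, adjusted p = 0.666, and 8.18e-08 with the block). The Guca2b value was 0.43, 1.75 and 1.80 in the EEC-like clusters led by Ghrl, by Chgb and by Gip fitted alone (the last with an adjusted p of 0.0474, where 11 of 10311 genes were called), and 1.92 and 0.63 without -EIPA replicates 1 and 2. Guca2b in the barcodes with fewer than 1000 genes went from 165 and 117 CPM to 562 and 467 CPM. Over all genes, 0.0163% were called in this class without the block and 1.65% with it. The small p values of the EEC-like fit with the block again rest on a spread that the fit shares across genes. In tuft-like cells Guca2b had 1.28 (SE 0.35, adjusted p = 0.672, and 0.0102 with the block) and Guca2a 0.70 (SE 0.38, 0.999, and 0.540 with the block), beside 0.0204% and 0.581% of genes. On leaving out 1 library these tuft-like values were 0.67 to 1.99 for Guca2b and 0.073 to 1.41 for Guca2a, highest without -EIPA replicate 1 and lowest without -EIPA replicate 2. In revival-like cells, where the -EIPA libraries stood far apart, Guca2a had 0.32 (SE 0.84) and Guca2b 0.25 (SE 0.98), and neither passed with or without the block (0% and 0.438% of genes called, DESeq2 calling 1 and 104 genes being at an unadjusted p under 0.05 by edgeR). These values were 0.89 and 0.94 with the block and 1.51 and 1.86 at resolution 0.4, and without -EIPA replicate 1 they were 2.34 and 2.65, where Guca2a passed (adjusted p = 0.0327, with 43 of 11092 genes called).

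In ISC-like and proliferating-like cells, Guca2b had log2 fold changes of 1.45 (SE 0.14) and 1.72 (SE 0.12), with edgeR adjusted p values of 0.162 and 0.145, or 4.43e-29 and 3.57e-06 with the block. Guca2a had 0.71 (SE 0.28) and 0.81 (SE 0.25), with 1.00 and 0.978, or 2.27e-06 and 0.000891 with the block. On leaving out 1 library these Guca2a values were 0.15 to 1.07 and 0.44 to 1.09. Here too the small p values with the block rest on a spread that the fit shares across genes. With the block, 5.76% and 4.78% of genes were called in these classes. Without it edgeR called 0% in both, with 442 and 603 genes at an unadjusted p under 0.05, and DESeq2 called 13 and 111. No expression was read from these levels, and Guca2b in the barcodes with fewer than 1000 genes moved the same way.

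Over all cells kept, Guca2a was at 131 and 110 CPM in -EIPA and 205 and 283 CPM in +EIPA, and Guca2b at 173 and 104 CPM against 494 and 523 CPM. The log2 fold changes were 1.11 (SE 0.21) and 1.96 (SE 0.26), with edgeR adjusted p values of 0.259 and 0.239, or 0.0450 and 0.0225 with the block. Gucy2c stayed at 45.7 to 47.6 CPM in all 4 WT libraries, with 0.06 (SE 0.07). In sums over all cells, a larger number of enterocyte-like or Paneth-like cells and more ligand RNA in each cell cannot be told apart. edgeR called 0 of 15890 genes (0%) here, with 1601 at an unadjusted p under 0.05 and 614 called by DESeq2, and 839 with the block (5.28%). Gucy2c passed the test in none of the 8 classes, with or without the block, and its log2 fold changes lay between -0.17 and 0.21.

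Whether the ligands responded differently in different classes was tested directly, in edgeR fits of 2 classes with the library as a term, which were chosen after seeing the data. The response of enterocyte-like cells exceeded that of Paneth-like cells by 2.42 (SE 0.22) on the log2 scale for Guca2a and by 1.90 (SE 0.17) for Guca2b, both with an adjusted p of 0.000121, in a fit that called 2.12% of 13214 genes. It exceeded that of goblet-like cells by 1.91 (SE 0.13, adjusted p = 2.48e-06) for Guca2a and by 1.45 (SE 0.18, adjusted p = 0.000614) for Guca2b, where 5.44% of 12923 genes were called. On leaving out 1 library, with the spread again taken from the group that keeps both, the differences from Paneth-like cells were 2.03 to 2.73 for Guca2a and 1.62 to 2.09 for Guca2b, and those from goblet-like cells 1.68 to 2.13 and 0.98 to 1.86. The response of Paneth-like cells differed from that of goblet-like cells by -0.48 (SE 0.11, adjusted p = 0.0566) for Guca2a and by -0.42 (SE 0.17, adjusted p = 0.540) for Guca2b, and neither passed (0.406% of 12078 genes called). Both passed without -EIPA replicate 2 (-0.65 and -0.87, 2.04% of genes) and without +EIPA replicate 1 (-0.65 and -0.62, 1.04%). Against ISC-like cells the difference was 1.97 (SE 0.17, adjusted p = 0.000654) for Guca2a and 0.74 (SE 0.20, adjusted p = 0.0920) for Guca2b, with 1.58% of 12850 genes called. No expression is read from the ligand values of ISC-like cells, so no response of that class is read from this contrast. The Guca2b value was 0.35 (adjusted p = 0.528) without -EIPA replicate 2 and 1.08 (adjusted p = 7.71e-06) without -EIPA replicate 1, and that last fit called 24.6% of genes. Gucy2c passed in none of the 4 fits of all libraries, and in the difference from ISC-like cells it passed without -EIPA replicate 1 (0.37, adjusted p = 0.0281).

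**Figure D4:**
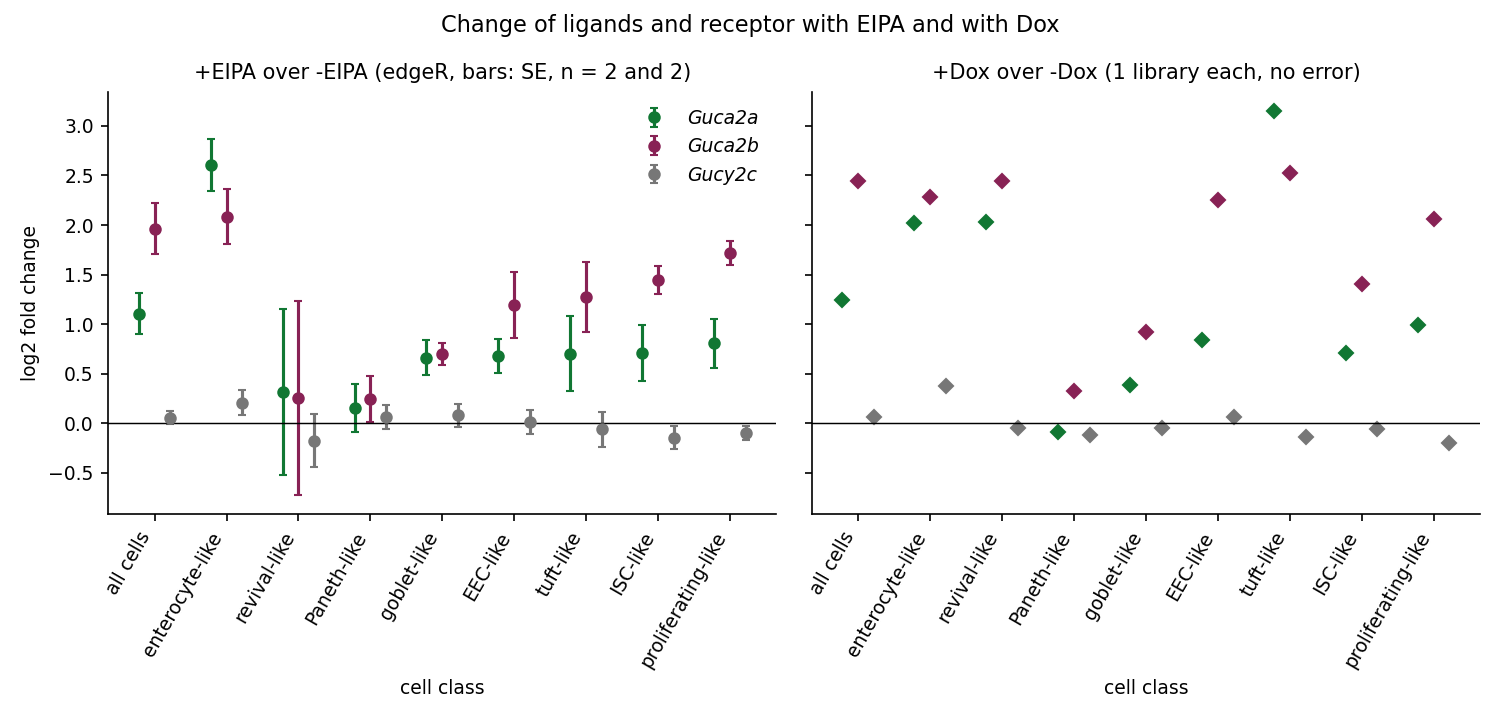
Log2 fold changes of Guca2a, Guca2b and Gucy2c over all cells and in 8 classes, on the left for +EIPA over -EIPA (edgeR, bars show the SE, 2 libraries against 2) and on the right for +Dox over -Dox (1 library each, no error). In enterocyte-like cells both ligands lie between 2.02 and 2.61 in both panels, in Paneth-like cells between -0.09 and 0.33, and Gucy2c lies between -0.20 and 0.37 throughout.

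Dox was compared with no Dox in the CRISPR line. There is 1 library in each group, so no test was made, and the exact Poisson 95% intervals given cover counting error only. In enterocyte-like cells Guca2a was at 115 CPM (112 to 118) without Dox and at 467 CPM (462 to 473) with it, a ratio of 4.07. Guca2b was at 451 CPM (445 to 457) and 2191 CPM (2179 to 2203), a ratio of 4.85. The clusters of this class had other weights in the 2 libraries, and the cluster led by Reg3a and Apoc3 held 1161 of 4057 cells in -Dox and 1524 of 3268 in +Dox. Guca2b went from 1031 to 3120 CPM in that cluster and from 122 to 1008 CPM in the one led by Gstm3, from 620 to 3726 CPM in the one led by Apoa4 and Apob, and from 336 to 1989 CPM in the one led by Reg1. Gucy2c was at 66.2 CPM (63.9 to 68.5) and 85.7 CPM (83.4 to 88.0), a ratio of 1.29. Among genes with a mean of at least 10 CPM in this class, 2.00% were at least 2-fold higher in +Dox, and both ligands were among them. In bin 5 of enterocyte marker level the ratios were 3.55 for Guca2a, 3.75 for Guca2b and 1.25 for Gucy2c, and this bin held 22.1% of the binned cells in -Dox and 44.8% in +Dox, of which 94.6% and 78.8% were enterocyte-like.

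In Paneth-like cells the ratios were 0.939 for Guca2a and 1.26 for Guca2b (0.497% of genes at least 2-fold higher), and in goblet-like cells 1.31 and 1.90 (0.809%). Neither ligand reached 2-fold in these classes as clustered here, but for Guca2b in goblet-like cells the log2 ratio of 0.92 became 1.25 without Harmony, 1.15 at resolution 0.4 and 1.11 with 20 components, each past 2-fold. In revival-like cells Guca2a went from 174 to 710 CPM, a ratio of 4.09, and Guca2b from 536 to 2925 CPM, a ratio of 5.46 (2.85%). On the log2 scale these were 2.03 and 2.45, and they became 1.44 and 1.46 without Harmony and 2.66 and 3.34 with 20 components. In EEC-like cells the ratios were 1.80 and 4.75 (0.476%), which on the log2 scale are 0.85 and 2.25. Without the cells of the highest doublet scores these became -0.34 and 0.84. The barcodes with fewer than 1000 genes went from 164 to 785 CPM of Guca2b and from 263 to 784 CPM of Guca2a. In tuft-like cells, with 76 and 58 cells, they were 8.87 and 5.75 (3.61%). In ISC-like and proliferating-like cells, at low levels, Guca2a had 1.64 and 1.98 and Guca2b 2.64 and 4.16 (0.332% and 0.405%). On the log2 scale the alternatives gave 0.68 to 1.31 for Guca2a and 1.40 to 2.15 for Guca2b in ISC-like cells. In proliferating-like cells they gave 0.82 to 1.32 and 1.75 to 2.45. Over all cells the ratios were 2.37 for Guca2a, 5.43 for Guca2b and 1.05 for Gucy2c (1.76%). Gucy2c lay between 0.872 and 1.29 in every class.

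The rest of the pathway was read from a list of 33 genes in 5 roles. Of the 7 effectors and ion transporters, Prkg2, Slc9a3, Slc26a3, Slc26a6 and Slc4a4 were highest on average in enterocyte-like cells. Prkg2, the cGMP-dependent kinase downstream of the receptor, averaged 96.1 CPM there (50.1 to 180 CPM over the libraries). Slc9a3, which encodes NHE3, averaged 22.4 CPM there and 0.901 CPM in ISC-like cells. Cftr went the other way, highest in ISC-like cells in 6 of 6 libraries (73.2 to 106 CPM) and averaging 32.5 CPM in Paneth-like cells. The sodium bicarbonate cotransporter Slc4a4 and Cftr had the highest levels of this role over all cells (64.1 and 58.7 CPM). The scaffolds of the list were led by Slc9a3r1 (NHERF1, 92.3 CPM over all cells), highest in revival-like cells, and Pdzd3 (5.20 CPM), highest in enterocyte-like cells. Of the genes listed under cGMP hydrolysis and export, Pde5a (44.1 CPM) and Pde3a (10.5 CPM) were highest over all cells, while Pde2a peaked in tuft-like cells at 78.4 CPM. The other guanylyl cyclases and natriuretic peptide receptors were at or near 0, with Npr1 (0.0903 CPM) and Npr2 (0.00311 CPM) the highest of the 8, and 5 of them had no UMI. Of the transcription factors, Cdx1 (113 CPM) and Cdx2 (114 CPM) were highest over all cells, Hnf4g was highest in enterocyte-like cells (212 CPM), and Klf4, Spdef and Atoh1 in goblet-like cells (151, 85.4 and 69.4 CPM).

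**Figure D5:**
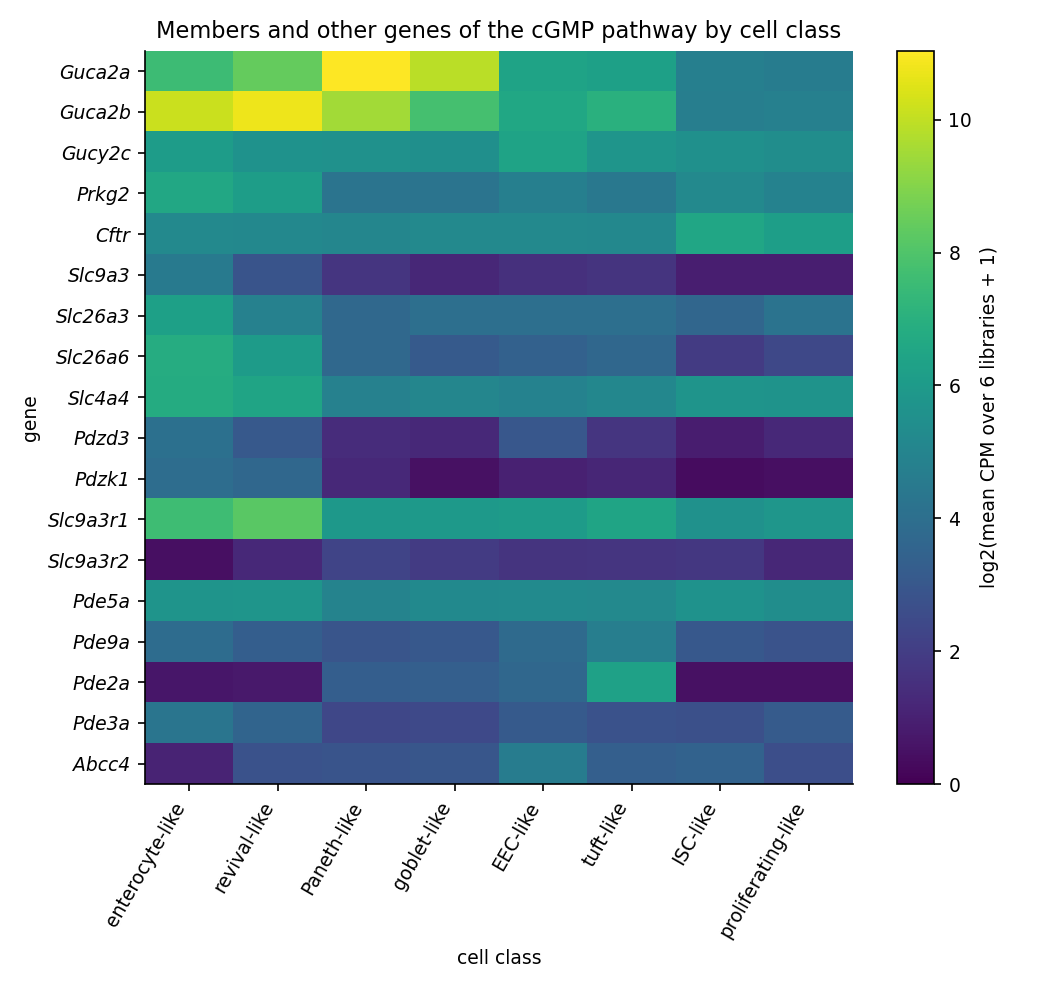
Mean level over the 6 libraries, as log2(CPM + 1), in 8 classes. Rows are the 3 members, the effectors and ion transporters apart from Prkg1, the scaffolds, and the genes listed under cGMP hydrolysis and export. Slc9a3, Slc26a3, Slc26a6 and Prkg2 are highest in enterocyte-like cells, where Guca2b is high, and Cftr is highest in ISC-like cells, where both ligands are near their lowest.

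With EIPA, 1 of the 33 genes passed without the block in any class, in Paneth-like cells, where 0.277% of all genes did: Slc26a6, an apical anion exchanger, rose in Paneth-like cells from 6.08 and 6.02 CPM to 17.1 and 12.8 CPM (log2 fold change 1.37, SE 0.16, edgeR adjusted p = 0.0290). At log2 fold changes of 1.07 to 1.37 this call was lost without -EIPA replicate 2, without Harmony, at resolution 1.2, with 20 components and without the highest doublet scores (adjusted p from 0.0530 to 0.425). In enterocyte-like cells it was at 85.6 and 61.7 CPM in -EIPA and 137 and 130 CPM in +EIPA (edgeR adjusted p = 0.0133 with the block). With the block, 4 of the 33 passed in enterocyte-like cells, beside 5.41% of all genes there: Slc26a6, the scaffolds Pdzk1 (log2 fold change 2.55, adjusted p = 0.0114) and Slc9a3r1 (0.98, adjusted p = 0.0133) higher, and the transcription factor Cdx1 lower (-0.57, adjusted p = 0.0486). Slc9a3r1 was at 148 and 143 CPM in -EIPA and 238 and 282 CPM in +EIPA, and Pdzk1 at 6.03 and 1.69 CPM against 18.8 and 17.6 CPM. The Pdzk1 value, 2.40 without the block, was 3.62 without -EIPA replicate 1 and 1.72 without -EIPA replicate 2. In Paneth-like cells 6 passed with the block, beside 3.02% of all genes, namely Slc26a6, Pdzk1, Slc9a3r1, Slc9a3 and Prkg2 higher and Klf4 lower. Pdzk1 and Slc9a3 were low over all cells (4.00 and 6.30 CPM) and highest in enterocyte-like cells. In Paneth-like cells Pdzk1 had a log2 fold change of 7.46 without the block, and the part of free RNA was not tested. Prkg2 in Paneth-like cells was at 10.2 and 11.6 CPM against 16.1 and 14.0 CPM. In goblet-like cells 4 passed with the block (5.74% of all genes), namely Slc26a6, Slc9a3r1 and Pde2a higher and Klf4 lower (log2 fold change -0.40, edgeR adjusted p = 3.48e-05). In ISC-like cells Slc26a6 passed upwards and Cftr (-0.32, adjusted p = 0.000483), Klf4 and Pde9a downwards, beside 5.76% of all genes. In proliferating-like cells Slc26a6, Pdzk1 and the exporter Abcc4 passed upwards and Slc26a3, Klf4 and Pde5a downwards (4.78% of all genes), and in EEC-like cells Slc26a6 alone passed (1.65%). Over all cells Slc26a6, Pdzk1, Slc9a3r1 and Prkg2 passed upwards and Cdx1 downwards, beside 5.28% of all genes. Slc26a6 was the gene of the list that passed with the block most often, in 6 of 8 classes and over all cells. It averaged 112 CPM in enterocyte-like cells and 2.78 CPM in ISC-like cells. The part of free RNA in the classes where it was low was not tested.

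The genes with the pattern most like each member were found over 48 sums of a class in a library, by Pearson's r of log2(CPM + 1) among 7406 genes. These sums share libraries and depth, and the values are descriptions. For Guca2a they were Liph (0.921), Smim14 (0.920), Tspan13 (0.917), P2rx4 (0.905) and Edem1 (0.904). For Guca2b they were Cgref1 (0.919), Prxl2a (0.910), Apoc2 (0.902), Gsn (0.897) and Tmc5 (0.897). For Gucy2c they were Abcb10 (0.852), Ubr3 (0.848), Ttyh2 (0.836), Dst (0.831) and Gm15200 (0.829). The ligands had an r of 0.769 with each other, and the receptor had an r of -0.01 with Guca2a and of 0.13 with Guca2b.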

How the data were processed

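Single-cell 3′ RNA libraries (10x Genomics) of organoids were deposited as count matrices, 1 for each of the 6 samples. The submitters' processing notes name Cell Ranger 6.1.2 and mouse builds GRCm38 and mm10. The values are counts of UMIs per gene and barcode as the authors deposited them, with no normalization, and 0 columns were left unused. The members and lists were chosen with earlier results of these data known.

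Barcodes with at least 1000 genes and under 20% mitochondrial counts were kept, which leaves 12606 and 18211 cells in -EIPA, 13194 and 14262 in +EIPA, 17598 in -Dox and 12083 in +Dox. Pearson residuals of 3000 genes were reduced to 45 components, corrected between libraries with a Harmony procedure written for this work in numpy 2.4.6, and clustered by Leiden at resolution 0.8 (scanpy 1.11.5, leidenalg 0.10.2). After the correction, 27.5% of a cell's neighbours came from its own library, against 55.3% before. A cluster took the name of the marker list that led its genes. Doublets were not removed in the main values. In 1 library Scrublet's own threshold marked 0.0476% of the cells, so the alternative removed the highest 10% of scores.

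Counts were summed per class and library, and the 4 WT libraries were tested with edgeR 4.0.16 (quasi-likelihood, TMM, filterByExpr) in R 4.3.3, with a threshold of 0.05 after Benjamini-Hochberg adjustment. DESeq2 1.42.0, library-size scaling, no filter, other clusterings, stricter limits on cells, all barcodes and leaving out each library were the alternatives. The labels number the replicates, and the study's source data list equal numbers as 1 experiment. When each library was set against the mean of its group, libraries of equal number deviated together, with r = 0.203 (tuft-like) to 0.732 (proliferating-like) in the classes and 0.690 over all cells, so the replicate number was used as a block in the alternative fit. It is not stated whether replicates came from separate animals, so p-values refer to these libraries only. With the block, which leaves 1 residual degree of freedom, they rest largely on a spread that the fit shares across genes. Very small p-values with the block are therefore no measure of how well a gene repeated between libraries. Poisson intervals and shares cover counting error only. The fits without the block were also run on simulated counts with a fixed spread and no effect of replicate number. These libraries differ from that setting, so the simulation does not show how the fits perform on them. Named genes were the members, pathway genes that passed a test or had the 2 highest levels of their role, and the 5 genes most like each member. The gene targeted in the CRISPR line is not reported here. Other genes named for a class they were highest in, and the leading genes of clusters, were chosen after their values were seen.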

Additional observations from a re-analysis of the deposited data

Results flagged for a closer look

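The responses of the ligands to EIPA differed between cell classes when the difference itself was tested, which drew attention to 5 values. On the log2 scale, the response of enterocyte-like cells exceeded that of Paneth-like cells by 2.42 for Guca2a and by 1.90 for Guca2b, and that of goblet-like cells by 1.91 for Guca2a and by 1.45 for Guca2b. It exceeded that of ISC-like cells by 1.97 for Guca2a. Each rests on 2 libraries in each group and on fits chosen after seeing the data. ISC-like cells held 12.6 to 57.1 CPM of Guca2a, and the part of free RNA in that level was not tested. No expression is read from that level, so no response of ISC-like cells is read from the last of the 5 values. No group had 4 or more samples, so single samples could not be singled out by their distance from the rest.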

How the results depend on the processing

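With 2 libraries in a group, the direction of both ligands in enterocyte-like cells, goblet-like cells and all cells held under every alternative run, and the call moved with the fit; the cause was not tested. Under the replicate block the log2 fold changes that passed were 1.09 (Guca2a) and 2.00 (Guca2b) over all cells, 2.57 and 2.12 in enterocyte-like and 0.68 and 0.70 in goblet-like cells; the block also gave calls to ligands in EEC-like, tuft-like, ISC-like and proliferating-like cells as printed above, and to none in Paneth-like or revival-like cells. Under DESeq2 these were 1.11 and 1.96, 2.63 and 2.10, and 0.67 and 0.70. With no filter on low counts they were 1.10 and 1.96, 2.62 and 2.10, and 0.66 and 0.70. Leaving out 1 library gave 2.20 to 2.92 for Guca2a and 1.76 to 2.52 for Guca2b in enterocyte-like cells, 1.65 to 2.36 for Guca2b over all cells, and -0.20 to 0.61 for Guca2a and -0.10 to 0.67 for Guca2b in Paneth-like cells, the negative ones without -EIPA replicate 2. In revival-like cells leaving out 1 library gave -0.50 to 2.34 for Guca2a and -0.60 to 2.65 for Guca2b. Guca2a in enterocyte-like cells was 2.70 without the highest 10% of doublet scores and 2.51, 2.81 and 2.94 in the clusters that passed alone, where Guca2b was 2.46, 1.47 and 2.96. Guca2b in goblet-like cells was 0.94 with 20 components and 0.40 at resolution 0.4.

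The Gucy2c fold change, which passed in no class under any alternative, changed sign with library size scaling (-0.027 over all cells, -0.023 in Paneth-like and -0.023 in EEC-like cells), at resolution 0.4 (-0.12 in goblet-like and 0.012 in revival-like cells), without the highest doublet scores (0.059 in tuft-like and -0.015 in EEC-like cells), without Harmony (-0.0044 in EEC-like cells), in 2 EEC-like clusters alone (-0.18 and -0.084) and on leaving out 1 library (-0.024 to 0.17 in goblet-like, -0.013 to 0.14 in Paneth-like and -0.080 to 0.12 in EEC-like cells). Pde2a in goblet-like cells was -0.66 at resolution 0.4. The difference in response of Paneth-like from goblet-like cells, on leaving out 1 library, was -0.87 to 0.0082 for Guca2b and -0.13 to 0.087 for Gucy2c. For +Dox over -Dox, Guca2a was -0.049 in goblet-like and 0.15 in Paneth-like cells at resolution 0.4, and without the highest doublet scores Guca2a was -0.34 in EEC-like and Guca2b -0.075 in Paneth-like cells. Library size scaling moved the median of all genes in enterocyte-like cells from -0.03 to -0.19, and the ligands are to be read relative to it.

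Genes called numbered 0 over all cells, in enterocyte-like and in goblet-like cells and 33 in Paneth-like cells. With no filter they were 198, 1316, 317 and 258, with the replicate block 839, 679, 663 and 360, and with DESeq2 614, 575, 54 and 85. Leaving out 1 library gave 0 to 137, 16 to 1294, 0 to 65 and 34 to 192. Library size scaling gave 1 in enterocyte-like and 108 in Paneth-like cells, resolution 0.4 gave 7 in enterocyte-like and 1 in goblet-like cells, and resolution 1.2 gave 26 in goblet-like and 1 in Paneth-like cells. With 20 components there were 64 in goblet-like and 7 in Paneth-like cells, and without Harmony 3 in goblet-like cells. Without the highest doublet scores there were 13, 20 and 0 in enterocyte-like, goblet-like and Paneth-like cells, and under stricter limits 1 in enterocyte-like and 55 in Paneth-like cells. The enterocyte-like clusters alone gave 32, 1, 258 and 16. The clusters alone, the doublet scores and the tests of differences were chosen after seeing the data. The shares of cells with a UMI moved with depth, as the thinned and unthinned values show. The part of free RNA in the low levels of ISC-like and proliferating-like cells, and in Guca2a of enterocyte-like cells, was not tested.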
